A study of Danio rerio with 19 samples.

Results

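Ventral pharyngeal arch cells sorted by a hand2 reporter were compared with arch cells of all domains in zebrafish embryos at 36 hours after fertilization (hpf). The comparison used 5 of the 19 RNA sequencing libraries of the study, chosen by their titles: 2 of cells carrying hand2 and sox10 reporters, called hand2-sorted here, and 3 of cells carrying fli1a and sox10 reporters, called all-arch here. Neural crest cells that migrate into the pharyngeal arches, segments below the embryonic head, form the skeleton of jaw and gills. All 5 libraries came from wild-type, untreated embryos at 36 hpf and from cells sorted as GFP and DsRed double positives per the labels. The titles of the hand2 libraries do not name fli1a, and the labels used here do not give the reporter constructs. The groups therefore differ in the reporter pair as well as in the domain sorted. Beside them stand 1 library of wild-type cells sorted by dlx5a and sox10 reporters at 36 hpf, untreated, and 2 libraries of fli1a and sox10 double-positive cells from genotyped edn1-/- embryos at 36 hpf. Values from 3 sox10-only libraries, wild-type and untreated at 20, 28 and 36 hpf, and from 3 wild-type fli1a-only libraries at 36 hpf are given where they bear on a gene. So are values from heat-shocked hspGal4 embryos at 36 hpf with or without UASEdn1 or UASNICD (1 library each).

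In each arch the crest cells take on dorsal, intermediate or ventral fates. The secreted peptide Endothelin 1 (Edn1) acts on ventral and intermediate crest through Ednra receptors, with BMP signals, to turn on Dlx and Msx homeobox genes and, most ventrally, hand2, a basic helix-loop-helix factor needed for the lower jaw. Dorsal crest is held in its own state by Jagged-Notch signalling, with the ligand gene jag1b, and expresses genes such as pou3f3b. The hand2 gene is also known from heart, limb bud and sympathetic and enteric neuron precursors.

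Expression was given as TPM, transcripts scaled by gene length and by the library total. Between 12050 and 13610 of 31953 genes reached 1 TPM in the 5 libraries, and the 10 most abundant genes took 21.9% to 32% of the total. TPM keeps no depth, so the depth is unknown. Separate clutches are not stated for the replicates. The p-values therefore reflect the spread among the 8 libraries fitted alone, which may be technical. Those are the 5 libraries, the dlx5a-sorted library and the edn1-/- pair, so the mutant replicates set part of that spread. The libraries numbered 1 stood apart from the rest: their median-of-ratios size factors were 0.841 (hand2-sorted) and 0.871 (all-arch) against 1.11 to 1.20 for the other 3. Across genes the log values of hand2-sorted replicate 2 correlated more with all-arch replicate 3 (r = 0.942) than with hand2-sorted replicate 1 (r = 0.931), a description over genes that are not independent.

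Levels of the sort genes test the labels and are not a result. The gene hand2 stood at 34428 and 25346 TPM in the hand2-sorted libraries and 729, 639 and 856 in the all-arch libraries, and took 3.44% and 2.53% of the total in the former. The gene sox10 stood at 27.4 and 64.7 against 12.6, 46.2 and 19.3 TPM, and fli1a at 32.6 and 28 against 41.6, 43.9 and 44.5 TPM. Genes of arch crest were high in both groups: dlx2a, a homeobox gene of arch crest, stood at 1344 and 787 against 821, 1143 and 873 TPM, and twist1a, a basic helix-loop-helix gene of crest mesenchyme, at 603 and 1060.4 against 727, 2036 and 1578 TPM. The groups overlapped for both genes.

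Of 13206 genes with a mean of at least 1 TPM, 205 (1.55%) passed the test between hand2-sorted and all-arch cells (limma on log2(TPM + 1), Benjamini-Hochberg adjusted p under 0.05). Most were lower in hand2-sorted cells: 166 (1.26% of genes tested) fell and 39 (0.295%) rose. The genes that fell included frontonasal homeobox genes, Endothelin receptors, dorsal arch genes, Irx genes and genes of the extracellular matrix. Those that rose, beside hand2, included posterior Hox genes, genes of heart muscle, genes of enteric and sympathetic precursors and a pair of genes for FGF-binding proteins. Fewer cells of a type and less RNA per cell cannot be told apart in such sorted pools.

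**Figure D1:**
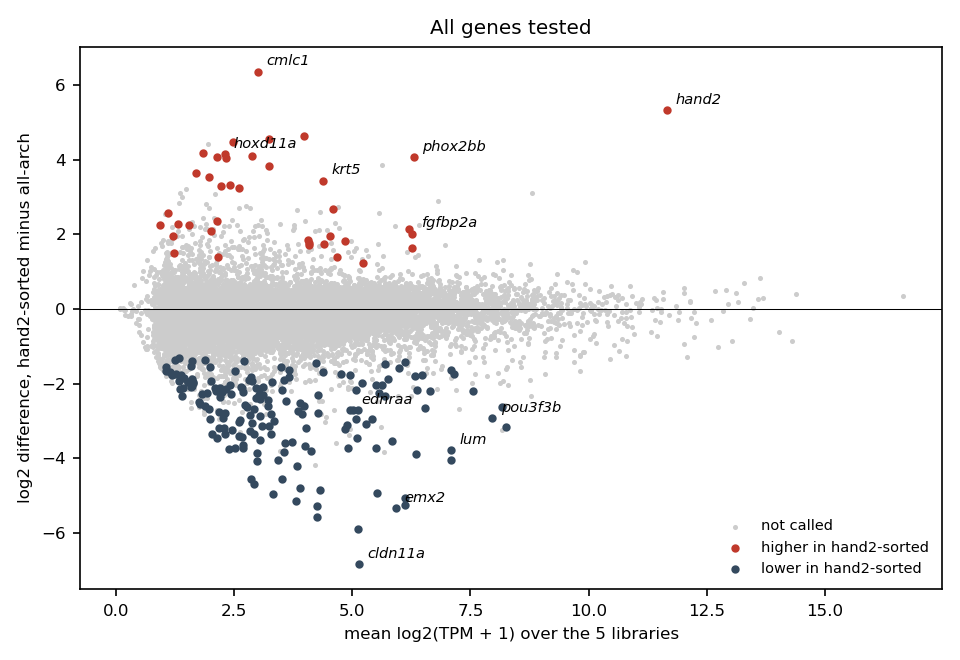
All 13206 genes tested, with the mean log2(TPM + 1) over the 5 libraries on the x axis and the log2 difference, hand2-sorted minus all-arch, on the y axis. Points in colour passed the test; 166 lie below zero and 39 above, with hand2, the sort gene, at 5.32.

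At an unadjusted p under 0.05 stood 1419 genes (10.7%), and the libraries of the groups did not overlap for 3614 (27.4%). The median log2 difference of all genes was -0.12, and became 0.01 with median-of-ratios scaling and 0.04 with quantile normalization, so list medians are read against -0.12. Calls depended on each library. Of the 39 and 166 calls, 7 and 24 remained without hand2-sorted replicate 1, 9 and 49 without hand2-sorted replicate 2, 8 and 46 without all-arch replicate 1, 10 and 53 without all-arch replicate 2, and 9 and 39 without all-arch replicate 3. A set of 25 calls, 4 higher and 21 lower, held in all 5 of these fits, and 199 of the 205 kept their sign in them, the other 6 being under the level filter in at least 1 fit. With the libraries numbered 1 left out of both groups, a choice made after seeing the data, 1 hand2-sorted library remained. Calls of that fit are therefore not read. In it the log2 difference of hand2 was 5.10, against 5.32 in the main fit, and that of dlx5a 0.587, against 0.996. With the replicate number as a block, 94 of 13292 genes tested were higher and 290 lower by limma. That fit left out the dlx5a-sorted library. All-arch replicate 3, alone with its number, added nothing to the blocked difference, which rests on replicates 1 and 2 of each group. The labels do not say what the number marks, and blocked values stand below where they change a call or a count. Counts of calls in the lists below stand against 0.295% higher and 1.26% lower of all genes tested. Blocked counts of lists stand against the larger blocked totals. A call below is said to hold when it passed in all 5 fits that left out 1 library. Where nothing is said of a call, whether it held is not given.

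The ventral list gathered genes of the Edn1-dependent ventral program and genes through which Edn1 acts, among them the receptor genes ednraa and ednrab. Of 21 members tested without hand2, 0 rose, 3 fell and 18 did not pass, and the median log2 difference was 0.44 against -0.12 for all genes. In either direction, the groups did not overlap for 13 of the 21, against 27.4% of all genes tested. An unadjusted p under 0.05 by limma was found for 11, against 10.7% of all genes tested. The Dlx genes at its core, homeobox factors that set ventral identity, were mostly above the all-arch libraries without passing. The gene dlx5a stood at 1595 and 1065 TPM in hand2-sorted and 555, 893 and 562 in all-arch libraries. Both hand2-sorted libraries lay above all 3 all-arch ones, with a log2 difference of 0.996 (SE 0.34, limma adjusted p = 0.31).

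Its paralog dlx6a stood at 15.5 and 13 against 4.81, 9.57 and 5.39 TPM and dlx4b at 137 and 124 against 59.8, 83.9 and 65.3 TPM. Again no library of one group reached into the other, with log2 differences of 1.05 (SE 0.35) and 0.91 (SE 0.23) and limma adjusted p of 0.306 and 0.158. In contrast, dlx4a stood at 115 and 110.1 against 74.2, 166 and 111 TPM and dlx3b at 383 and 486 against 182, 455 and 249 TPM, with hand2-sorted values within the all-arch range for dlx4a and overlapping it for dlx3b. The edn1-/- libraries lay below every hand2-sorted and all-arch library for these genes, with dlx3b at 7.18 and 23.5, dlx4a at 5.22 and 7.4, dlx4b at 2.91 and 2.94, dlx6a at 0.392 and 1.14 and dlx5a at 209 and 249 TPM. The dlx5a-sorted library held 928 TPM of dlx3b, 458 of dlx4a and 260.1 of dlx4b, above every hand2-sorted and all-arch library. Its dlx5a, at 1530.3 TPM, lay between the values of the hand2-sorted pair. Ear markers were also high in it, and dlx3b is on the ear list as well. Without dlx3b, 12 ear markers summed to 869.8 TPM there, 122 to 132 in hand2-sorted and 181 to 288 in all-arch libraries. The part of ear cells in these Dlx levels was not tested.

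The other ventral factors named here did not pass either. The homeobox gene msxe stood at 145 and 104 against 94.9, 71.9 and 86.3 TPM, and the T-box gene tbx2b at 382 and 385 against 155, 236 and 278 TPM, both without overlap and with limma adjusted p of 0.607 and 0.365. A further Msx gene of the list, msxb, differed in the other direction (log2 -0.83, limma adjusted p = 0.463). The homeobox gene gsc overlapped, at 199 and 438 against 134, 197 and 243 TPM. BMP ligand gene bmp4 stood lower, at 2.02 and 4.94 against 12.2, 12.3 and 19.9 TPM (log2 -1.86, SE 0.37, limma adjusted p = 0.0744), without passing.

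The 3 ventral list members that passed were all lower in hand2-sorted cells. The Endothelin receptor gene ednraa stood at 10.3 and 8.74 TPM in hand2-sorted and 70.5, 66.6 and 66.5 in all-arch libraries, and ednrab at 0.841 and 1.32 against 12.9, 21.1 and 15.7 TPM. Levels in all-arch cells were 7.13 and 15.3 times those in hand2-sorted cells, with the groups far apart (log2 -2.71, SE 0.36, and -3.06, SE 0.29; limma adjusted p = 0.0212 and 0.00707). The ednraa call was lost in each of the 5 fits that left out 1 library (adjusted p up to 0.141), and the ednrab call in 1 of them (up to 0.0667). The edn1-/- libraries stood at 103 and 43.7 TPM for ednraa and 25.2 and 30.4 for ednrab, and the dlx5a-sorted library at 18.1 and 4.59.

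Of the 15 endothelin pathway genes measured, 9 reached the level needed for the test, and these 2 receptors were the ones that passed (median of the 9, -0.45). Ligand genes were low in all of these cells: edn1 stood at 3.12 and 0.597 against 0.136, 0.428 and 0.549 TPM and edn2 stood at 5.43 and 7.45 against 2.31, 1.66 and 3.47 TPM (log2 1.12, limma adjusted p = 0.186). The other ventral list gene that fell was grem2b, which encodes a secreted BMP antagonist. It stood at 23.9 and 23.6 TPM in hand2-sorted libraries and 79.8, 128 and 71.5 in all-arch libraries, with 147 in the dlx5a-sorted library. The hand2-sorted pair was below every other library of these groups (log2 -1.88, SE 0.31, limma adjusted p = 0.043), and the call was lost in each of the 5 fits that left out 1 library (up to 0.269).

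**Figure D2:**
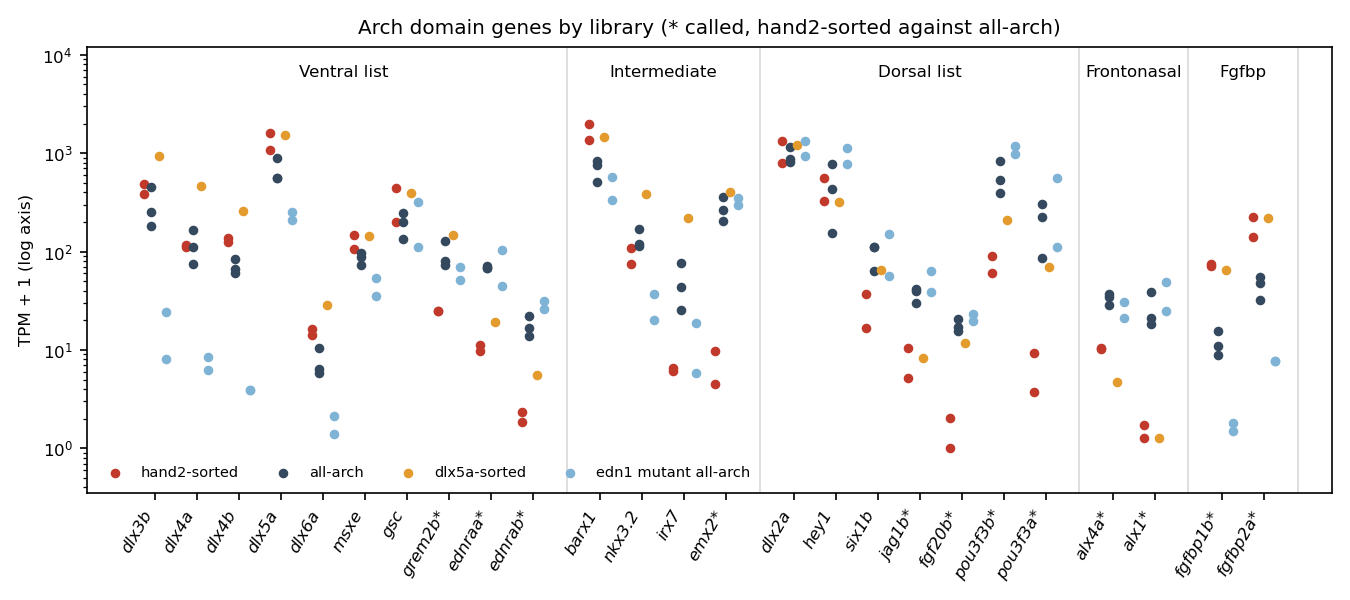
TPM + 1 on a log axis for genes of the ventral, intermediate, dorsal and frontonasal lists and for fgfbp1b and fgfbp2a, with 1 point per library for hand2-sorted (2), all-arch (3), dlx5a-sorted (1) and edn1-/- all-arch (2) cells. Asterisks mark genes that passed between hand2-sorted and all-arch cells; alx1 lies near the floor in both hand2-sorted libraries and in the dlx5a-sorted one, while emx2 is low in the hand2-sorted pair alone.

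The genes fgfbp1b and fgfbp2a, which encode secreted FGF-binding proteins, were named after their values were seen. The gene fgfbp1b stood at 73.7 and 71.1 TPM in hand2-sorted and 14.7, 9.89 and 7.8 in all-arch libraries, a mean ratio of 6.7 (log2 2.68, SE 0.30, limma adjusted p = 0.0124). For fgfbp2a the values were 139.8 and 226 against 31.3, 54.5 and 47.2 TPM, a mean ratio of 4.12 (log2 2.01, SE 0.33, limma adjusted p = 0.0395). Both rose in both hand2-sorted libraries without overlap, and neither call held, with adjusted p of up to 0.106 and 0.173. The dlx5a-sorted library was close to the hand2-sorted pair, at 64.2 and 219.6 TPM. In edn1-/- libraries both were the lowest of these groups, at 0.789 and 0.486 TPM for fgfbp1b and 6.71 and 6.76 for fgfbp2a. For fgfbp2a, heat-shocked UASEdn1 cells held 94.9 TPM against 33.7 with hspGal4 alone and 0.339 with UASNICD, single libraries with no replicate check.

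Of 8 genes of the intermediate and joint domain tested (of 11 measured), 0 rose, 1 fell and 7 did not pass. Their median log2 difference was -1.28, and 1.26% of all genes tested fell. With the replicate number as a block, 1 was higher (barx1, limma adjusted p = 0.0341) and 2 lower (emx2, and irx7 with adjusted p = 0.0402). The gene that fell was emx2, a homeobox gene of arch and forebrain, at 8.86 and 3.48 TPM in hand2-sorted and 203, 359 and 261 in all-arch libraries. All-arch cells held 44.5 times as much (log2 -5.33, SE 0.40, limma adjusted p = 0.00467), and the call held. The dlx5a-sorted library stood with the all-arch ones, at 399.9 TPM, as did the edn1-/- pair at 351 and 299.6. Against the dlx5a-sorted library the log2 difference of emx2 was -5.91, with a limma adjusted p of 0.0574, short of the threshold.

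A pair of joint genes was lowest in hand2-sorted and highest in dlx5a-sorted cells of the wild type. Neither gene passed without the block, and irx7 but not nkx3.2 passed with it. The Iroquois gene irx7 stood at 5.04 and 5.63 against 24.7, 75.8 and 42.6 TPM, with 218 in the dlx5a-sorted library (hand2-sorted minus all-arch log2 -2.80, SE 0.61, limma adjusted p = 0.0957). The jaw joint homeobox gene nkx3.2 stood at 107 and 73.8 against 169, 119 and 114 TPM, with 388 in the dlx5a-sorted library. Both hand2-sorted values lay below the all-arch range for each gene, and the dlx5a-sorted library above it. The homeobox gene barx1, a regulator that favours cartilage over joint, was higher at 1359 and 1961 against 514, 756 and 825 TPM, without overlap (log2 1.25, SE 0.37, limma adjusted p = 0.228).

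Of the 23 dorsal list genes, 4 fell, 0 rose and 19 did not pass, while 1.26% of all genes tested fell. The median log2 difference of the list was -0.75. A further gene, six1b, passed with the replicate number as a block (limma adjusted p = 0.0224). The POU-domain gene pou3f3b, a marker of dorsal arch crest, stood at 59.6 and 89.3 TPM in hand2-sorted and 391.7, 826 and 539 in all-arch libraries, and its paralog pou3f3a at 2.74 and 8.25 against 84.3, 306 and 222 TPM. The groups were far apart for both, by 7.87 and 37.1 times (log2 -2.92, SE 0.38, and -4.94, SE 0.83; limma adjusted p = 0.0189 and 0.0444). Neither call held, with adjusted p of up to 0.176 and 0.316. The dlx5a-sorted library lay between the groups, at 208 and 69.4 TPM, and the edn1-/- libraries were above the all-arch ones for pou3f3b, at 989 and 1182 TPM.

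The FGF ligand gene fgf20b stood at 1.03 and 0 TPM in hand2-sorted libraries, listed at 0 in replicate 2, against 14.7, 19.6 and 16.2 in all-arch libraries (log2 -3.64, SE 0.35, limma adjusted p = 0.00729). This call held. The Notch ligand gene jag1b stood at 4.19 and 9.57 against 29.1, 38.4 and 40.8 TPM, with 7.34 in the dlx5a-sorted library, near the hand2-sorted pair, and 37.4 and 62.8 in the edn1-/- pair. Its fall by 5.25 times passed (log2 -2.31, SE 0.39, limma adjusted p = 0.0444) and was lost in each fit that left out 1 library (up to 0.269). Among dorsal genes that did not pass, hey2, a Notch target, stood at 2.13 and 6.37 against 11, 11.1 and 26.8 TPM and six1b, a homeobox gene of dorsal arch, at 15.6 and 36.1 against 62.1, 111 and 111 TPM, both without overlap. In contrast dlx2a, given above, hey1 (323 and 562 against 782, 154 and 431 TPM) and six1a (964 and 497 against 746, 588 and 695 TPM) overlapped.

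The Notch pathway list as a whole showed both directions, with 2 of 20 members tested higher, 1 lower and 17 not passing. Of all genes tested, 0.295% were higher and 1.26% lower, and the median of the list was 0.04. Beside jag1b, the Delta ligand genes dll4 and dla rose. The gene dll4 stood at 50.8 and 51.9 against 9.49, 15.6 and 13.3 TPM (log2 1.95, SE 0.27, limma adjusted p = 0.0221), and dla at 42.9 and 26.1 against 8.24, 9.77 and 10.6 TPM (log2 1.72, SE 0.29, limma adjusted p = 0.0443). Both were above every all-arch library, and both calls were lost in each fit that left out 1 library, with adjusted p of up to 0.186 and 0.31. The dlx5a-sorted library was lower than the all-arch ones, at 3.71 and 7.6 TPM. The gene dll4 is also an endothelial marker, and dla a neuronal one.

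The frontonasal and maxillary list held steep falls. Of 11 members tested, 4 fell, 0 rose and 7 did not pass, while 1.26% of all genes tested fell. The list had a median of -0.77, and 5 members were lower with the replicate number as a block. Its Alx genes mark crest of the upper face rather than the lower jaw. The gene alx1, a homeobox factor of frontonasal crest, stood at 0.717 and 0.263 TPM in hand2-sorted and 20.1, 17.1 and 37.8 in all-arch libraries. It was close to the floor in hand2-sorted cells (log2 -4.06, SE 0.45, limma adjusted p = 0.0123), and the call was lost in 3 of the 5 fits that left out 1 library (up to 0.0741). The related alx4a stood at 9.42 and 9.26 against 27.5, 33.6 and 36.2 TPM, a ratio of 3.47 (log2 -1.68, limma adjusted p = 0.0358), and was lost in each such fit. The dlx5a-sorted library was as low as the hand2-sorted pair or lower for both, at 0.281 TPM of alx1 and 3.76 of alx4a. The edn1-/- libraries stood at 48.4 and 24 TPM for alx1 and 29.7 and 20.1 for alx4a. Members that overlapped included lhx6, a LIM homeobox gene of oral jaw mesenchyme, at 57.6 and 76.5 against 36.5, 52.8 and 62.3 TPM, and lhx8a at 47.1 and 60.7 against 37.2, 69.2 and 80.2 TPM.

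The Fox genes of the arches, forkhead factors placed by Hedgehog and other signals, gave 0 calls in 9 members tested, with a median of -0.77. For 5 of the 9 the unadjusted p by limma was under 0.05, against 10.7% of all genes tested. With the replicate number as a block 1 was lower by limma. The gene foxf2a stood at 829.7 and 611 against 262, 297 and 379 TPM and foxc1a at 91.7 and 181 against 503, 338 and 708 TPM, each without overlap and in opposite directions (log2 1.20 and -1.93; limma adjusted p = 0.136 and 0.107). The forkhead gene foxl2, outside this list and known from ovary and periocular mesenchyme, fell: it stood at 0 and 0.172 TPM in hand2-sorted libraries, listed at 0 in replicate 1, and 17, 20.1 and 42.8 in all-arch libraries (log2 -4.56, SE 0.44, limma adjusted p = 0.00736). That call was lost in 1 of the 5 fits that left out 1 library (up to 0.0678).

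Of 8 Iroquois homeobox genes tested, a family gathered after values were seen, 3 fell, 0 rose and 5 did not pass. Of all genes tested, 1.26% fell, and the median of the family was -1.9995. Under the replicate block 5 were lower. The gene irx2a stood at 0.762 and 1.31 TPM in hand2-sorted and 42.7, 41.4 and 94.6 in all-arch libraries, a ratio of 57.5 whose call held (log2 -4.80, SE 0.40, limma adjusted p = 0.00544). The gene irx1b stood at 2.71 and 9.99 against 47.3, 98.9 and 122 TPM and irx1a at 0.535 and 1.07 against 8.03, 11 and 24.9 TPM, with limma adjusted p of 0.034 and 0.0341; neither held. For irx6a the groups overlapped, at 10.7 and 6.52 against 6.71, 8.74 and 9.14 TPM.

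Of 16 cartilage and bone genes tested (of 24 measured), 4 fell, 0 rose and 12 did not pass, while 1.26% of all genes tested fell. The median of the 16 was -2.09, with differences up to 1.43. Under the replicate block 7 were lower. The collagen gene col9a1a stood at 0.404 and 0.803 against 16.4, 19.4 and 34.6 TPM and matn4, for a matrilin of cartilage matrix, at 1.87 and 2.08 against 31.3, 25.4 and 51.2 TPM. For both, every hand2-sorted value was below every all-arch one by more than 10 times (log2 -3.87, SE 0.37, and -3.57, SE 0.33; limma adjusted p = 0.00707 and 0.00707), and each call was lost in 1 of the 5 fits that left out 1 library, with adjusted p of up to 0.0667 and 0.0643.

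The fibrillar collagen gene col1a2 stood at 55.8 and 116 against 499, 725 and 1100.2 TPM (log2 -3.17, SE 0.44, limma adjusted p = 0.0237), and sparc, for a matrix protein of bone and basement membranes, at 63.3 and 73.7 against 161, 228 and 262 TPM (log2 -1.62, SE 0.28, limma adjusted p = 0.0444). Neither of these held. The cartilage collagen gene col2a1a did not pass, with 1.25 and 3.74 against 29.3, 57 and 114 TPM, a wide spread in all-arch cells (log2 -4.17, SE 1.29, limma adjusted p = 0.249). The cartilage regulator sox9a varied more between replicates than between groups, at 11.4 and 148 against 25.4, 203 and 215 TPM, low in both libraries numbered 1. The groups overlapped for the linker protein gene hapln1a, at 643 and 731 against 658, 816 and 644 TPM.

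Small leucine-rich proteoglycans, which bind and space collagen fibrils, and thrombospondins, multimeric matrix glycoproteins, were gathered as families after values were seen. Of 7 proteoglycan genes tested 5 fell and 0 rose (median -3.18), and of 4 thrombospondin genes tested all 4 fell (median -3.07). Among all genes tested, 1.26% fell. The gene aspn was listed at 0 in hand2-sorted replicate 1 and stood at 0.158 TPM in replicate 2, against 23.2, 25.3 and 33 in all-arch libraries (log2 -4.70, SE 0.27, limma adjusted p = 0.00242). The gene fmoda stood at 20.5 and 28.4 against 417, 304 and 565 TPM, and lum at 21.5 and 35.1 against 515, 256 and 447 TPM. For both genes the groups were well apart (log2 -4.05, SE 0.33, and -3.78, SE 0.46; limma adjusted p = 0.0052 and 0.0164). The calls of aspn and fmoda held, and that of lum did not (up to 0.141).

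The gene dcn moved least of those that fell, at 28.8 and 48.4 against 134, 119.7 and 143 TPM (log2 -1.79, limma adjusted p = 0.0341), and kera stood at 4.63 and 2.36 against 30.3, 31.9 and 58.4 TPM (log2 -3.18, limma adjusted p = 0.0164). Of the thrombospondins, thbs3b stood at 1.09 and 1.69 against 24.9, 28.8 and 50.0 TPM, the largest fall of the 4 (log2 -3.84, SE 0.36, limma adjusted p = 0.00707), and thbs1b at 13.9 and 25 against 78.2, 100.2 and 120.2 TPM, the smallest (log2 -2.33, SE 0.35, limma adjusted p = 0.0298). In the dlx5a-sorted library these genes were also near the hand2-sorted level, with 0.254 TPM of aspn, 24.1 of lum and 1.46 of thbs3b, while fmoda at 108 TPM lay between the groups.

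Other large falls were of genes for adhesion, junctions and secreted signals. The largest of all was of cldn11a, for a claudin of tight junctions, at 0.66 and 1.51 TPM in hand2-sorted and 227, 179.5 and 312 in all-arch libraries (log2 -6.84, SE 0.36, limma adjusted p = 0.0022). The chemokine gene ccl25b stood at 0.918 and 1.33 against 96.7, 70.2 and 80.4 TPM (log2 -5.29, SE 0.24, limma adjusted p = 0.0015). Both groups were tight and far apart, by 220.5 and 73.4 times.

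The gene adma, for the vasoactive peptide adrenomedullin, stood at 8.97 and 5.99 against 337, 286 and 229 TPM, and tnw, for the matrix protein tenascin W, at 5.49 and 8.34 against 288, 224 and 399.6 TPM. The adhesion receptor gene vcam1 stood at 0.628 and 0.814 against 41.2, 27.2 and 55.6 TPM, and npb, for neuropeptide B, at 0.0981 and 0.472 against 25.1, 33.7 and 67.6 TPM. Their log2 differences were -5.07, -5.25, -4.56 and -4.96, with limma adjusted p between 0.00463 and 0.00563, and all of these calls held, as did those of cldn11a and ccl25b. The protease family gene prss35 fell as well (0.331 and 4.32 against 76.9, 55.6 and 99.6 TPM, log2 -4.84, limma adjusted p = 0.0159), as did the unnamed gene CABZ01056516.1 (log2 -5.14), and neither held. All 8 of these genes stood at 15.8 TPM or below in the dlx5a-sorted library.

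**Figure D3:**
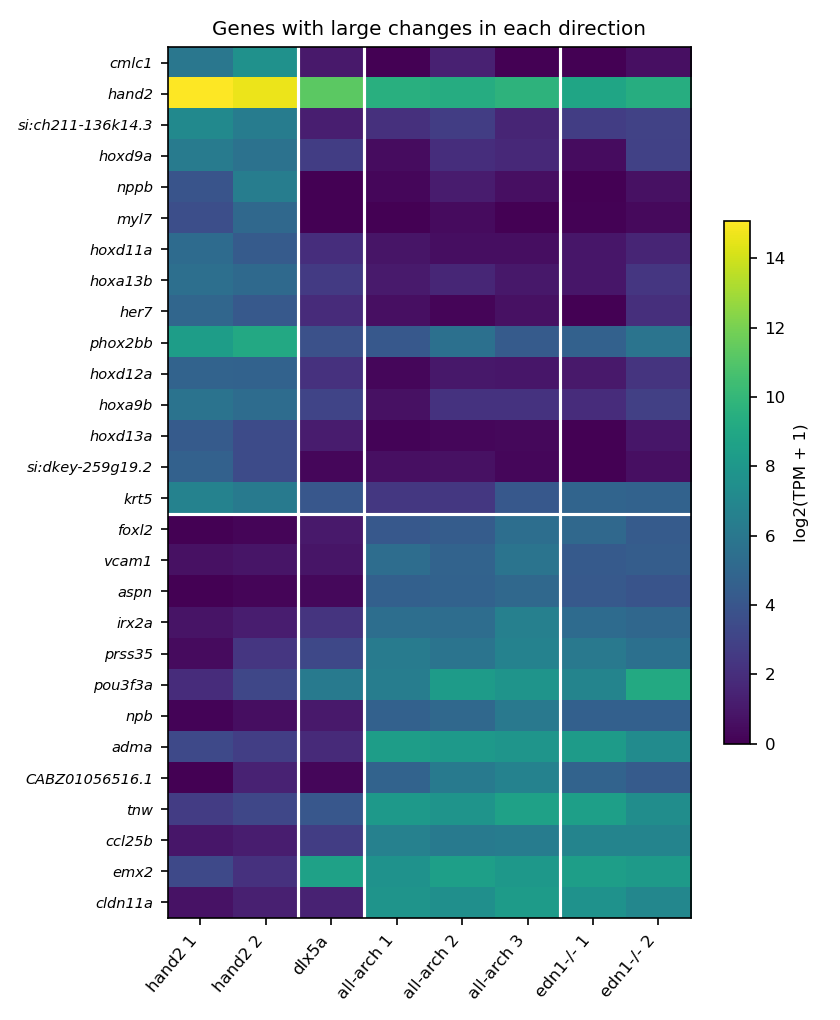
Colour shows log2(TPM + 1) in each library for the 15 genes with the largest rise and 13 of the 15 with the largest fall among those that passed with at least 10 TPM in the higher group. Columns are hand2-sorted (2), dlx5a-sorted (1), all-arch (3) and edn1-/- (2) libraries; the dlx5a-sorted column is closer to the hand2-sorted ones for genes that fell, except emx2 and pou3f3a, and closer to the all-arch ones for genes that rose.

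Of 20 genes that mark arch crest in general, 3 fell, 0 rose and 17 did not pass, while 1.26% of all genes tested fell. The median of the 20 was -0.47. With the replicate number as a block 1 of them was higher and 3 lower. The fallers were tfap2a and tfap2b, for AP-2 factors of neural crest, and nrp2b, for a semaphorin coreceptor. The gene tfap2a stood at 32.3 and 33 against 106, 159 and 199 TPM (log2 -2.16, SE 0.35, limma adjusted p = 0.0419). The values were 1.48 and 1.46 against 12.2, 10.9 and 24.6 TPM for tfap2b and 2.14 and 2.54 against 12.8, 13.5 and 21 TPM for nrp2b, again without overlap (log2 -2.69 and -2.30; limma adjusted p = 0.026 and 0.0167). None of the 3 held. The mesenchyme genes prrx1b (458 and 443 against 319.8, 406 and 427 TPM) and twist1b (1087 and 1028 against 433, 902 and 737 TPM) were slightly higher in hand2-sorted cells, without passing.

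Signalling lists beyond Edn1 and Notch held few calls. In the BMP list 2 of 18 members tested fell and 0 rose, with a median of -0.02, which is 0.09 above the median of all genes. The target gene id2b passed as higher with the replicate number as a block (limma adjusted p = 0.0146). The members that fell were grem2b and bmp2b, a ligand gene that stood at 17.7 and 13 against 64.4, 58.5 and 67.3 TPM (log2 -1.99, SE 0.27, limma adjusted p = 0.0221). For the BMP targets id1 and id3 the groups overlapped: id1 stood at 5016 and 4225 against 4023, 6218 and 4618 TPM and id3 at 517 and 418 against 526, 469.8 and 604 TPM. Across the BMP list the groups did not overlap for 9 of the 18 members, against 27.4% of all genes tested. An unadjusted p under 0.05 by limma was found for 8, against 10.7% of all genes tested. In the FGF list fgf20b was the 1 call in 18 members tested (median -0.45, and 2 lower with the replicate number as a block). The target genes spry2 (228 and 495 against 233, 323 and 456 TPM) and dusp6 (222 and 376 against 175, 934 and 477 TPM) overlapped. However, 9 of the 18 FGF members did not overlap and 5 had an unadjusted p under 0.05 by limma, against the same shares of all genes.

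In the Wnt list 1 of 20 members tested rose and 0 fell, while the median was -0.73. The groups did not overlap for 18 members, against 27.4% of all genes tested. For 10 members the unadjusted p by limma was under 0.05, against 10.7% of all genes tested. With the replicate number as a block 1 was higher and 2 lower, sfrp2 among them (limma adjusted p = 0.00367), and dkk1b no longer passed (adjusted p = 0.0507). The member that rose was dkk1b, for a secreted Wnt antagonist, at 42.5 and 28.8 against 11.3, 8.47 and 7.5 TPM (log2 1.85, SE 0.31, limma adjusted p = 0.0423), with 55.5 in the dlx5a-sorted library; the call did not hold. The antagonist gene sfrp2 just missed the threshold, at 4.99 and 16.8 against 80.7, 191 and 203 TPM (log2 -3.84, SE 0.68, limma adjusted p = 0.0527). The Hedgehog list gave 0 calls in 14 members tested, with a median of -0.29. For 5 of the 14 the unadjusted p by limma was under 0.05, against 10.7% of all genes tested. In the retinoic acid list 1 of 11 fell (median -0.40, and 2 lower with the block). It was crabp2a, for a retinoic acid binding protein, at 15.3 and 10.5 against 64.9, 52.4 and 65.9 TPM (log2 -2.17, limma adjusted p = 0.0164). Of 8 T-box genes tested (median -0.18), tbx18 and tbx22 fell: tbx18 stood at 2.69 and 2.01 against 13.1, 12.6 and 15.9 TPM and tbx22, a gene of palate in mammals, at 0.0836 and 0.142 against 3.62, 3.71 and 4.26 TPM (limma adjusted p = 0.014 and 0.0111). The dlx5a-sorted library held 4.83 TPM of tbx22, with the all-arch libraries.

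Cell cycle genes gave 0 calls in 30 members tested (0 at an unadjusted p under 0.05), with a median of 0.23, by limma. Stress and immediate-early genes gave 0 in 17 (1 at an unadjusted p under 0.05), with a median of -0.04. Of all genes tested, 10.7% had an unadjusted p under 0.05.

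Hox genes give crest its place along the body axis, low-numbered paralog groups in the hind arches and high-numbered groups in trunk, fin and tail. Of 50 Hox genes measured, a family taken whole after values were seen, 38 reached the level filter and were tested. Of the 38, 11 rose, 0 fell and 27 did not pass, while 0.295% of all genes tested rose. All 38 differences were above 0, with a median of 1.41. The filter mean includes the hand2-sorted pair, so genes high in that pair alone could enter through it. The signs and medians may partly follow from this filter. Under the replicate block 17 of the 38 were higher, against 94 of 13292 genes in that fit. In paralog groups 1 to 8, 2 of 24 rose (median 1.26), and in groups 9 to 13, 9 of 14 (median 3.31). The summed level of groups 1 to 8 was 1346 and 1395 TPM in hand2-sorted libraries and 475, 585 and 718 in all-arch libraries. That of groups 9 to 13 was 336 and 230.3 TPM against 8.65, 24.5 and 22.8.

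The arch gene hoxa2b, which gives the hyoid arch its identity, stood at 428 and 479 TPM in hand2-sorted and 166, 204 and 195 in all-arch libraries, with 483 in the dlx5a-sorted library. It was more than 2 times as high without overlap and just missed the threshold (log2 1.27, SE 0.23, limma adjusted p = 0.057), which it passed with the replicate number as a block (adjusted p = 0.0352). The genes hoxb5b (174 and 183 against 37.1, 26.1 and 63 TPM) and hoxb1b (53.3 and 67.5 against 11.7, 17.1 and 22 TPM) passed, with limma adjusted p of 0.0444 and 0.0474.

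Among the posterior genes, hoxd9a stood at 75 and 50.4 against 0.393, 2.98 and 2.38 TPM (log2 4.56, SE 0.76, limma adjusted p = 0.0443). The gene hoxd11a stood at 37.7 and 19.3 against 0.795, 0.47 and 0.482 TPM (log2 4.15, SE 0.36, limma adjusted p = 0.00563), and was the 1 Hox call that held. The gene hoxa13b stood at 45.3 and 34.4 against 1.17, 2.1 and 0.992 TPM (log2 4.09, SE 0.46, limma adjusted p = 0.0126). All 3 were at 2.98 TPM or below in every all-arch library. The sum over groups 9 to 13 was 35.01 TPM in the dlx5a-sorted library, 11.6 and 47.6 in the edn1-/- pair, 61.2 to 252 in fli1a-only and 540.0 to 1185 in sox10-only libraries. The part of sox10-only cells in the hand2-sorted values was not tested.

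**Figure D4:**
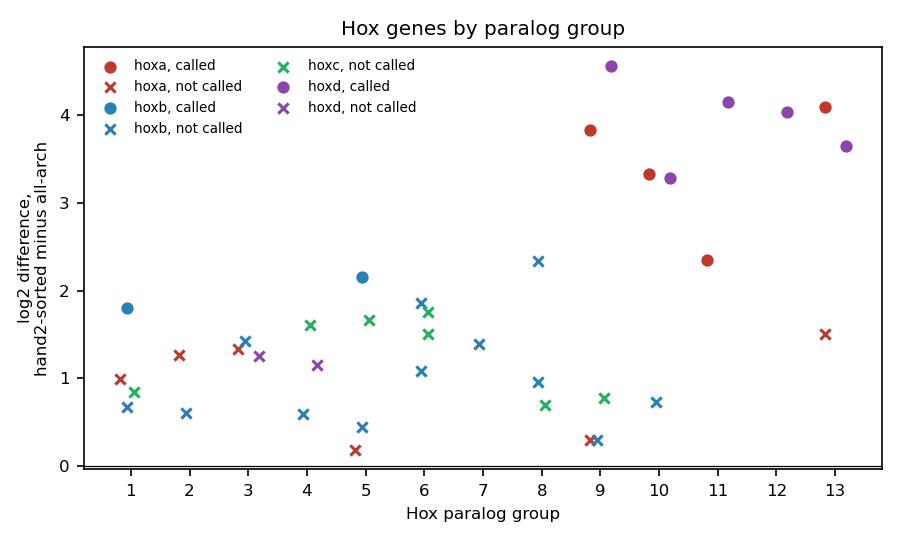
Log2 difference, hand2-sorted minus all-arch, of 38 Hox genes by paralog group, with colour for the cluster and filled points for genes that passed. All points lie above 0, and the 9 calls of groups 9 to 13 belong to the hoxa and hoxd clusters. Genes high in the hand2-sorted pair alone could pass the level filter through that pair.

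Markers of other cells that a hand2 and sox10 gate could hold were read in the same libraries. For enteric and sympathetic precursors, 3 of 9 markers tested rose (4 of the list with the replicate number as a block) and 2 fell. Of all genes tested, 0.295% rose and 1.26% fell. The level filter included the hand2-sorted pair, so a marker such as tlx2 could enter the test through that pair. The summed level of 15 markers was 786 to 852 TPM in hand2-sorted and 125 to 266 in all-arch libraries. It was 74.4 TPM in the dlx5a-sorted library and 909.6 to 1236 in sox10-only libraries. The homeobox gene phox2bb, a master regulator of autonomic neurons, stood at 333 and 547 TPM in hand2-sorted and 16.6, 46.2 and 18.9 in all-arch libraries (log2 4.07, SE 0.54, limma adjusted p = 0.0212). The receptor gene ret, needed by enteric precursors, stood at 18.4 and 27.4 against 0.909, 1.94 and 1.67 TPM (log2 3.25, SE 0.33, limma adjusted p = 0.00815), and tlx2, a homeobox gene of enteric neurons, at 4.94 and 3.56 against 0.335, 0.514 and 0.187 TPM (log2 1.96, limma adjusted p = 0.0286).

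All 3 of these genes were near the sox10-only levels, which were 378, 356 and 446 TPM for phox2bb and 12.6, 9.99 and 21.2 for ret, and none of the calls held. The proneural gene ascl1a stood at 351 and 171 against 9.11, 45.2 and 9.47 TPM without passing (log2 3.86, SE 0.80, limma adjusted p = 0.0843). The markers of mature noradrenergic neurons were at the floor: th was listed at 0 in both hand2-sorted libraries, and dbh stood at 0.358 and 0.146 TPM. The zinc finger genes gata3 (10.5 and 9.96 against 53.6, 83.3 and 86.5 TPM) and gata2a (5.24 and 4.86 against 30.7, 30.1 and 73.7 TPM) were the 2 members that fell, with limma adjusted p of 0.0124 and 0.0433. The part of such cells in the other differences was not tested.

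For heart and pericardium, 9 of 16 markers reached the level filter and were tested. Of the 9, 3 rose (4 with the replicate number as a block) and 0 fell, while 0.295% of all genes tested rose. All 9 differences were above 0, with a median of 2.26. Markers near 0 in all-arch cells could pass the filter through the hand2-sorted pair, so the signs and median may partly follow from it. The 3 that rose were cmlc1, myl7 and vmhc. The summed level of 16 markers was 138 and 371 TPM in hand2-sorted libraries against 10.1 to 23.9 in all-arch, 11.1 in dlx5a-sorted and 182 to 341 in sox10-only libraries. The cardiac myosin light chain gene cmlc1 stood at 63.1 and 197 TPM in hand2-sorted libraries and at 1.61 in all-arch replicate 2, and was listed at 0 in all-arch replicates 1 and 3 (log2 6.35, SE 0.62, limma adjusted p = 0.00756); this call held. The light chain gene myl7 stood at 11.3 and 32.7 against 0.0289, 0.382 and 0 TPM (log2 4.18, SE 0.45, limma adjusted p = 0.0111). Outside this list, nppb, for a natriuretic peptide, stood at 14 and 84.4 against 0.221, 1.25 and 0.535 TPM (log2 4.47, SE 0.71, limma adjusted p = 0.0383). Hand2-sorted replicate 2 was the higher for cmlc1, myl7 and nppb. The cardiac transcription factor gene gata4 stood at 0.0157 and 0.17 TPM in hand2-sorted libraries, and the epicardial genes tcf21 and wt1a were also below 1 TPM in both. The part of heart cells in the other differences was not tested.

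**Figure D5:**
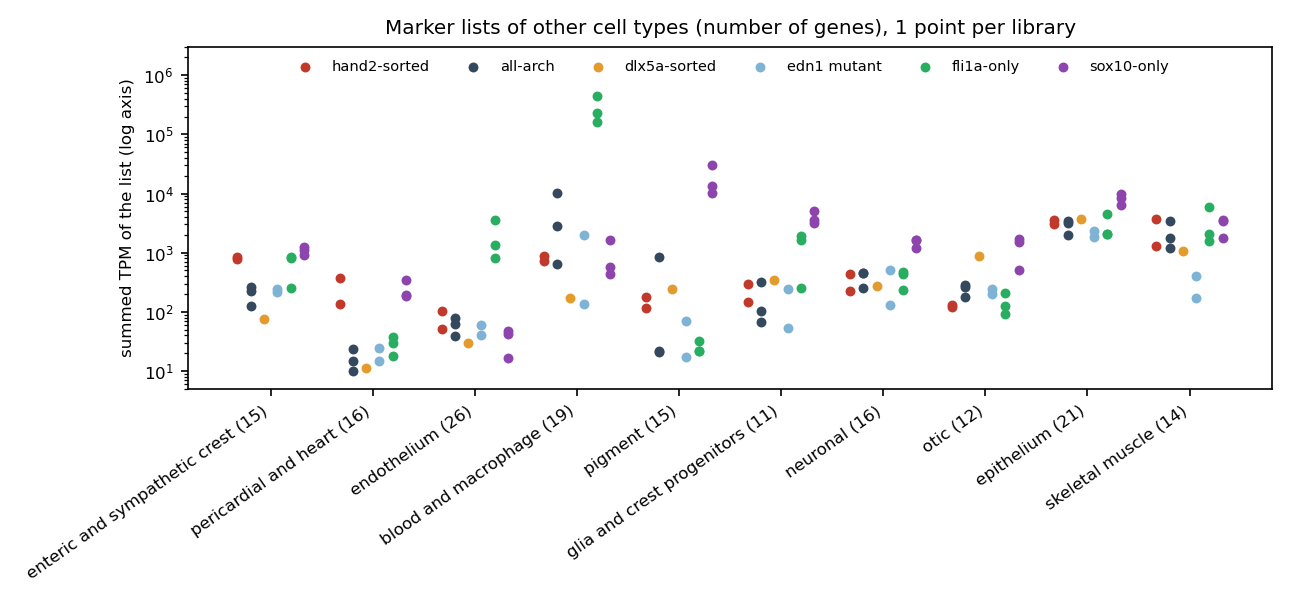
Summed TPM on a log axis of marker lists for 10 other cell types, with 1 point per library and the number of genes of each list in brackets. Hand2-sorted libraries lie above all-arch libraries for enteric and sympathetic crest (786 to 852 against 125 to 266 TPM) and for heart (138 to 371 against 10.1 to 23.9 TPM).

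Of 15 epithelial genes tested (of 21 measured), krt5 rose, 0 fell and 14 did not pass, while 0.295% of all genes tested rose. The median was 2.07, with differences from -1.25 to 3.43. With the replicate number as a block 5 were higher, among them krt4, epcam and cldnb (limma adjusted p = 0.0153, 0.00822 and 0.0478). Of the 21, cldn7b, cdh1, tp63, grhl3 and ovol1 were under 1 TPM in both hand2-sorted libraries. In every all-arch library 7 of the 21 were so. The basal keratin gene krt5 stood at 100.3 and 73.3 against 4.4, 4.46 and 16.5 TPM (log2 3.43, SE 0.53, limma adjusted p = 0.0353), and did not hold (up to 0.265). The keratin gene krt4 stood at 1672 and 1571 against 128, 54.1 and 957 TPM, above but widely spread (limma adjusted p = 0.325 without the block), and the summed level of 21 epithelial genes overlapped at 3020 to 3628 against 2008 to 3479 TPM. The ear gene oc90 rose (46.5 and 43.3 against 14, 16.4 and 19.3 TPM, limma adjusted p = 0.0444). Its call was lost in each of the 5 fits that left out 1 library (up to 0.329). The summed ear list turned on sparc. With sparc it was lower, at 122 to 132 against 181 to 288 TPM, and over the other 11 genes higher, at 58.6 and 58.5 against 20.02, 32.9 and 25.3 TPM. The dlx5a-sorted library held 869.8 TPM of the ear list with sparc.

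Of 13 endothelial genes tested, dll4, given above, rose, kdrl fell and 11 did not pass, with a median of 0.40. The sum of 26 endothelial markers, without dll4, was close, at 51.4 to 103 against 39.5 to 77.8 TPM. The gene kdrl, for a VEGF receptor, had the lowest difference of the list, at 0.554 and 0.94 against 5.95, 7.56 and 7.52 TPM (log2 -2.20, limma adjusted p = 0.0159). Blood and macrophage markers summed to 718 to 889 TPM in hand2-sorted and 638 to 10228 in all-arch libraries, and pigment markers to 115 to 179 against 21.1 to 832, all-arch replicate 2 being the highest in both. The blood, pigment, glia, neuron and skeletal muscle lists gave 0 calls in 15, 5, 6, 9 and 11 members tested. In the same order, 1, 2, 0, 2 and 1 members had an unadjusted p under 0.05 by limma, against 10.7% of all genes tested.

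Other large rises were of her7, hoxd12a and unnamed genes. The gene her7, a hairy-related gene of the segmentation clock, stood at 30.1 and 17.4 against 0.515, 0.162 and 0.624 TPM (log2 4.08, SE 0.59, limma adjusted p = 0.0276, and 0.0572 with the replicate number as a block). The unnamed gene si:ch211-136k14.3 stood at 143 and 80.0 against 3.25, 5.65 and 1.93 TPM, and its call held (log2 4.63, SE 0.42, limma adjusted p = 0.00655). It was also high in sox10-only libraries, at 104, 50.8 and 44.9 TPM. The unnamed gene si:dkey-259g19.2 stood at 25.1 and 10.1 TPM in hand2-sorted libraries and at 0.561, 0.631 and 0.224 in all-arch ones, and reached at most 1.31 TPM in sox10-only libraries (log2 3.54, limma adjusted p = 0.0146). The posterior gene hoxd12a stood at 26.4 and 25.5 against 0.216, 0.971 and 0.852 TPM (log2 4.03, limma adjusted p = 0.01).

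A direct test of hand2-sorted cells against the dlx5a-sorted library, a broader ventral population by its reporter, called 0 of 13206 genes in either direction (0%, limma adjusted p under 0.05), while 1407 (10.7%) had an unadjusted p under 0.05. A single library stands on the dlx5a side, assumed to vary like the other groups, and a p that misses the threshold does not show that the populations are alike. The lowest values among the genes named here were 0.0574 for emx2 and 0.0603 for dll4 and si:ch211-136k14.3 (adjusted p, limma). Under other settings up to 21 genes were higher and 163 lower.

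Set side by side, and without a test because both comparisons share the all-arch libraries, the 166 genes that fell and the 38 that rose apart from hand2 were placed by their level in the dlx5a-sorted library. Of the 166, 66 (39.8%) stood in or below the hand2-sorted range, 90 (54.2%) between the groups and 10 (6.02%) in or above the all-arch range. Of all 2070 genes tested that were lower without overlap, the shares were 66.3%, 17.9% and 15.8%. The 10 were sparc, emx2, chst1, slc16a12b, tbx22, fxyd1, grem2b and 3 unnamed genes. Of the 38, 3 (fgfbp2a, fahd1 and dkk1b) stood in or above the hand2-sorted range, 16 between and 19 in or below the all-arch range, which is 7.89%, 42.1% and 50.0%. Of all 1544 genes tested that were higher without overlap, the shares were 25.6%, 15.4% and 59%. The background genes in both directions needed a gap of any width between the groups, while the calls were chosen by the test. The backgrounds are thus not matched for the size of the gap, and the shares are not like for like.

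In the edn1-/- libraries, which hold all arch domains, both values were below the all-arch range for 7 of the 38 genes that rose and above it for 12, against 5.18% and 9.7% of all 13206 genes tested. The 7 included fgfbp1b, fgfbp2a and mdkb, for the growth factor midkine, which stood at 171 and 131 TPM in hand2-sorted, 47.8, 44.7 and 51.3 in all-arch and 31.6 and 26.8 in edn1-/- libraries (hand2-sorted minus all-arch log2 1.63, SE 0.23, limma adjusted p = 0.0243). For the 166 genes that fell, the edn1-/- pair lay below the all-arch range in 48 and above it in 13, with the same shares of all genes as background. The all-arch libraries that chose these genes also set the range.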

How the data were processed

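RNA of sorted GFP and DsRed double-positive cells was purified with RNeasy Micro columns, amplified as SMARTer cDNA with cycles set by the RNA input, and sequenced as paired ends on HiSeq 2000 and NextSeq 500 instruments, per the labels' protocols. Which instrument read which library is not stated in the labels. The submitters' processing notes name TopHat2, Partek and the build GRCz10, with no versions. The authors deposited 1 table of TPM values for 31953 genes in 19 columns; each column summed to about 93168.2 and was rescaled here by 10.7333 to 1000000. TPM keeps no depth, so no counting error can be given, and more cDNA cycles or a few abundant genes shift all other values.

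Genes with a mean of at least 1 TPM over 8 libraries (all-arch, hand2-sorted, dlx5a-sorted and edn1-/-) were fitted as log2(TPM + 1) by group with limma 3.58.1 in R 4.3.3 (trend and robust empirical Bayes, 4 residual degrees of freedom), with Benjamini-Hochberg adjusted p under 0.05 as the threshold. Fold changes on this scale understate low genes. A gene high in the hand2-sorted libraries alone could pass the level filter through them. The text names members of 28 gene lists (513 of 516 members found), and the 15 genes with the largest change in each direction among calls without overlap and with at least 10 TPM in the higher group. Some genes the rule names are not reported here. The members and lists were chosen with earlier results of these data known; the Hox, Irx, proteoglycan and thrombospondin families, and genes named outside the rule (fgfbp1b, fgfbp2a, mdkb and those listed in the comparison with the dlx5a-sorted library), were chosen after values were seen here. Alternatives changed the scale, pseudocount, filter, normalization, libraries fitted, replicate block and empirical Bayes options, and left out each library.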

Additional observations from a re-analysis of the deposited data

How the results depend on the processing

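Against 39 genes higher and 166 lower in hand2-sorted than all-arch cells, limma called 18 and 66 on the scale as deposited, 24 and 193 with a pseudocount of 0.1, 45 and 85 with a pseudocount of 10, 31 and 64 with no filter, 25 and 133 with a filter at 5 TPM, and 65 and 184 after quantile normalization. Higher genes made up 19.02% of calls, 34.6% with a pseudocount of 10 and 32.6% with no filter. Leaving out each library in turn gave 8 to 14 higher and 24 to 54 lower. Without the libraries numbered 1 of both groups, 1 hand2-sorted library remained, and calls of that fit are not read. With the replicate number as a block, 94 and 290 passed, including 35 and 160 of the main calls, with 2 residual degrees of freedom. That fit left out the dlx5a-sorted library, and all-arch replicate 3 added nothing to its difference. Residuals of libraries with the same number, taken from each group's mean, correlated across genes at 0.543 (number 1) and 0.335 (number 2). However, hand2-sorted replicate 2 correlated at 0.378 with all-arch replicate 3, and the labels do not say what the number stands for. For the edn1-/- pair the same-number values were 0.618 and 0.450 with all-arch libraries and 0.636 with hand2-sorted ones. Replicate 2 of that pair correlated at 0.352 with all-arch replicate 3. The hand2-sorted and edn1-/- groups hold 2 libraries each, and the residuals of one mirror those of the other. These correlations are therefore not separate evidence of pairing. The other alternatives gave counts within 1.5 times the main ones, and no named gene that passed reversed its sign. Similar counts did not mean the same genes. A fit of the hand2-sorted and all-arch libraries only called 29 higher and 117 lower, and kept 23 of the 39 and 107 of the 166 main calls. Called counts of single lists under the block stand with those lists. Hand2-sorted against dlx5a-sorted, with 0 and 0 calls, gave 3 and 6 on the deposited scale, 13 and 40 with a pseudocount of 10, 21 and 163 with no filter, 3 and 3 with a filter at 5 TPM, 3 and 9 with median-of-ratios scaling, 3 and 11 with quantile normalization, and 15 and 18 in a fit of all 19 libraries; leaving out a library gave 0 higher and 0 to 1 lower. No paired analysis was possible because the dlx5a-sorted library has no replicate number, in that comparison alone. The cause of these differences was not tested. Depth, unknown here, limits values near the floor.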
